A study of Homo sapiens with 48 samples.

Results

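H3K27ac ChIP-seq in L3.6pl cells after 6 h of TNFα was set against H3K27ac in vehicle-treated cells, peak by peak across chromosomes 1 to 22 and X. L3.6pl is an established human pancreatic ductal adenocarcinoma line. The series holds 48 samples, of which 6 enter the comparison as 3 TNFα-treated and 3 vehicle-treated (PBS) samples. RELA, RELB and FOSL1 peak lists of the same line, and 3 further H3K27ac lists (30 min TNFα, 30 min TWEAK and 6 h TWEAK), were used to describe the peaks. All samples share 1 cell line, no label says how long vehicle was applied, and the 3 replicates of a condition were pooled by the authors into 1 list. A pooled list leaves no error between replicates, so no difference between lists was tested, and the words gained, kept and lost name classes of peaks. A gained peak is a 6 h peak that shares no base with a vehicle peak, a lost peak is a vehicle peak that shares no base with a 6 h peak, and every peak with at least 1 bp in common is kept. Each share has an exact (Clopper-Pearson) 95% interval over regions, in parentheses or as error bars, which covers counting error only. Sequencing depth per sample is unknown.

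H3K27ac, acetylation of lysine 27 of histone H3, is laid down by the p300 and CBP acetyltransferases and marks active promoters and enhancers. TNFα binds its receptor on the cell surface and activates IκB kinase, which leads to the breakdown of IκBα and to the entry of RELA-containing NF-κB dimers into the nucleus. RELB is mainly the partner of p52 in the noncanonical pathway, which TWEAK activates, and FOSL1 is a subunit of AP-1. NF-κB target genes include its own inhibitors, chemokines, cytokines and survival factors.

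Among the 3 factors, RELA set gained and lost peaks farthest apart, and the sequences of 8 RELA sites in or beside gained peaks are therefore shown first. Each is the 121 bp around the summit of a 6 h RELA peak that overlaps a gained H3K27ac peak, on the plus strand of hg38, and holds no exon. The first 6 belong to genes of the lists described further on (NFKBIE and NFKB1 of the NF-κB pathway, the chemokines CCL5, CXCL10 and CXCL11, and PTGS2 and SOD2). They are all sites where a gained peak near a listed gene overlaps RELA, apart from that of IL32, which reaches into an exon. The remaining 2 belong to gained peaks among the 5 of highest fold enrichment and were picked after their motifs were seen, whereas the site of the highest one, at FRS2, held no match. Capitals mark matches to the NF-κB consensus or to the AP-1 site (TGACTCA or TGAGTCA), searched on both strands.
CCL5, chr17:35890180-35890300: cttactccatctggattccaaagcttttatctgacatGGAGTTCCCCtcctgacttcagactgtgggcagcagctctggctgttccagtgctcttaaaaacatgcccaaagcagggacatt
NFKB1, chr4:102552981-102553101: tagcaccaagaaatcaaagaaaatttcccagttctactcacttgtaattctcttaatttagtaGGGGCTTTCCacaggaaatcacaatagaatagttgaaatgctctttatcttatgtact
CXCL10 and CXCL11, chr4:76036121-76036241: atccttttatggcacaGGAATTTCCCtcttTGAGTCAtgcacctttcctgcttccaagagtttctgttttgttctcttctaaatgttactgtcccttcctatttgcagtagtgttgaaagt
PTGS2, chr1:186708934-186709054: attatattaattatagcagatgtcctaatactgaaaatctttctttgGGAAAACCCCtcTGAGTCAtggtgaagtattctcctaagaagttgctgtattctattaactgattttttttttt
NFKBIE, chr6:44263544-44263664: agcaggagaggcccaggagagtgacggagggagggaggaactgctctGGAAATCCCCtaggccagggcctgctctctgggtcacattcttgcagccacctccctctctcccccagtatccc
SOD2, chr6:159716864-159716984: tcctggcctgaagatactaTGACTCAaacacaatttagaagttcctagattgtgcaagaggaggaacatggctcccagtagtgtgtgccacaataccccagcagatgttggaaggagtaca
GALNT18, chr11:11622256-11622376: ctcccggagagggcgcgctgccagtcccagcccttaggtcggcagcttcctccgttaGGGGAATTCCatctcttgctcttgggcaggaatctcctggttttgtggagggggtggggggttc
ACP6, chr1:147640904-147641024: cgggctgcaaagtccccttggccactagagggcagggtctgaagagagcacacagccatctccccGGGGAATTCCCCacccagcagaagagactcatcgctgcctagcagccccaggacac
The NF-κB consensus was found in all of these windows except that of SOD2, and the AP-1 site lay close to it at CXCL10/CXCL11 and PTGS2. Among windows of this length, the NF-κB consensus was present in 63.7% (56.1 to 70.9) of 171 RELA summits that lay in gained peaks outside tandem repeats and in 56.0% (54.3 to 57.6) of all 3663 RELA summits there. The share was 2.35% among windows placed 1 kb to the right of the same summits, 2.66% at the centres of gained peaks without RELA and 2.77% at the centres of lost peaks. For the AP-1 site the shares were 22.2%, 18.3%, 1.94%, 4.10% and 4.08% in the same order. These matches describe the letters of the windows and do not show binding.

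The 6 h list held 61154 peaks and the vehicle list 59855. Of the 6 h peaks 10223, or 16.7% (16.4 to 17.0), were gained, and of the vehicle peaks 9321, or 15.6% (15.3 to 15.9), were lost. The kept class held 50931 peaks of the 6 h list and 50534 of the vehicle list. The total covered length was 55.5 Mb in each list, and 46.0 Mb, or 82.9% of the 6 h list, was common to both. The 6 h list covered 9.47 Mb that the vehicle list did not, of which 3.87 Mb lay in gained peaks and 5.61 Mb in the edges of kept ones. The vehicle list covered 9.49 Mb alone, with 3.46 Mb in lost peaks and 6.03 Mb in edges. Which class was larger depended on the threshold, since with both lists at q 0.001 or below 12.2% of peaks were gained and 13.7% lost. Gains and losses thus had nearly the same size, and more of the difference lay in the boundaries of kept peaks than in separate peaks. Among chromosomes the gained share ran from 11.7% on X to 19.7% on 8, and the lost share from 12.3% on 21 to 17.7% on 5.

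Gained and lost peaks looked alike in length and enrichment, and both differed from kept peaks. The median length of gained peaks was 319 bp (interquartile range 252 to 431) and that of lost peaks 318 bp (255 to 430), against 914 bp (498 to 1412) for kept peaks of the 6 h list. Median fold enrichment over input, as deposited by the authors and averaged over a peak by the peak caller, was 2.56 for gained, 2.61 for lost and 3.14 for kept peaks. Few gained or lost peaks were well above the calling threshold. A q of 0.001 or below was reached by 22.5% of gained, 23.1% of lost and 81.1% of kept peaks. In addition, a peak of the other list lay within 1 kb of 21.1% of gained and 22.5% of lost peaks. The long tail was the first place where the classes separated, since 193 gained peaks (1.89%) and 74 lost peaks (0.794%) reached 1000 bp.

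**Figure D1:**
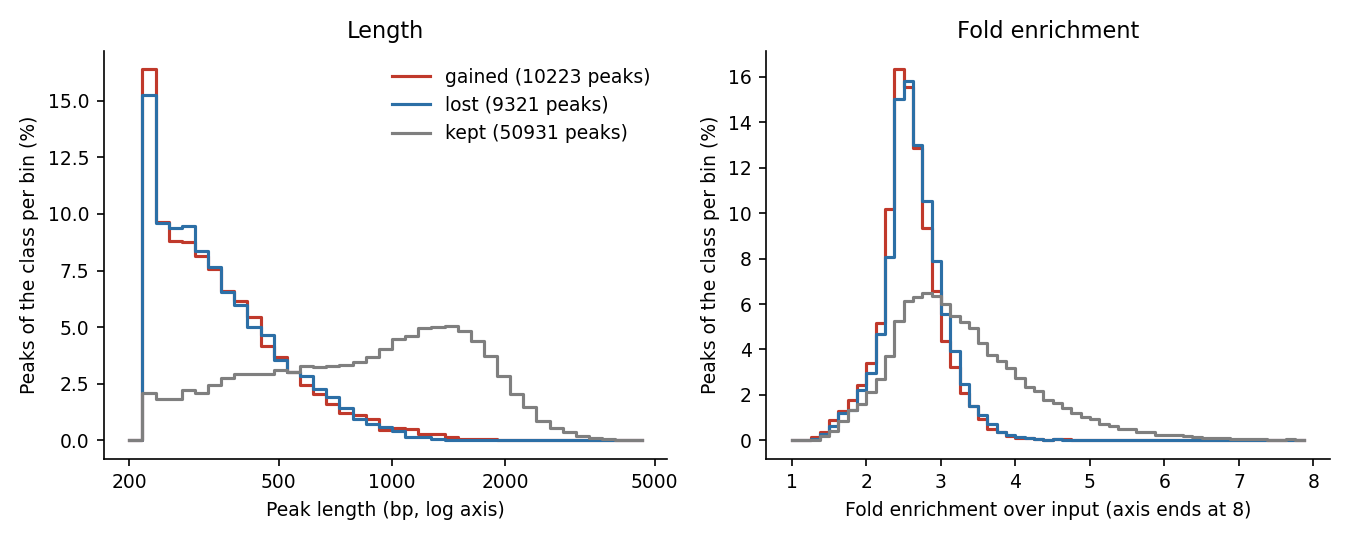
Distribution of H3K27ac peak length (left, bp, log axis) and fold enrichment over input (right) for gained, lost and kept peaks, each as the percent of peaks of the class per bin. The gained and lost curves lie nearly on top of each other, with median lengths of 319 and 318 bp, while kept peaks are longer and reach higher fold enrichment.

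Gained and lost peaks both lay away from promoters. Within 1 kb of a transcription start site (TSS) of a protein-coding gene were 5.04% (4.62 to 5.48) of gained and 6.07% (5.60 to 6.58) of lost peaks, compared to 27.8% of kept peaks. The median distance to the nearest TSS was 35.8 kb for gained, 32.7 kb for lost and 17.3 kb for kept peaks. Introns held 50.0% of gained, 50.0% of lost and 47.6% of kept peaks, and exons 3.79%, 4.12% and 11.5%. The mean GC content was lowest for gained peaks, at 43.5% for gained, 45.0% for lost and 50.3% for kept peaks.

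RELA peaks lay under gained peaks more often than under lost ones. Of all gained peaks 649, or 6.35% (5.88 to 6.84), overlapped a RELA peak of the same 6 h treatment, compared to 272 lost peaks, or 2.92% (2.59 to 3.28), and 6.26% of kept peaks. A large share of these overlaps fell in tandem repeats such as satellite arrays, where reads are hard to place, and 49.6% of the 6 h RELA peaks lay there. Tandem repeats held 8.54% of gained, 6.82% of lost and 4.08% of kept H3K27ac peaks. Outside them 277 of 9350 gained peaks, or 2.96% (2.63 to 3.33), overlapped RELA, against 16 of 8685 lost peaks, or 0.184% (0.105 to 0.299), and 2060 of 48854 kept peaks, or 4.22%. The results on RELA that follow refer to peaks outside tandem repeats.

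Gained peaks also lay directly beside RELA sites. Within 500 bp of a RELA peak were 675 gained peaks, or 7.22% (6.70 to 7.76), and 32 lost peaks, or 0.368% (0.252 to 0.520). Thus 398 gained peaks lay 1 to 500 bp from RELA without touching it, compared to 16 lost peaks. Between 500 bp and 1 kb only 23 more gained and 8 more lost peaks were added. As background, H3K27ac is carried by nucleosomes, which are often displaced at a bound site. Beyond that distance the curves ran nearly in parallel, and within 5 kb of RELA lay 9.28% of gained, 2.13% of lost and 8.33% of kept peaks.

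The share with RELA increased with the length of the gained peak. It was 0.909% below 300 bp (36 of 3959), 1.74% from 300 to under 500 bp (65 of 3734), 6.88% from 500 to under 1000 bp (101 of 1469) and 39.9% (32.8 to 47.3) at 1000 bp or more (75 of 188). Kept peaks of the same 4 length classes had RELA in 0.386%, 0.913%, 2.53% and 7.07%. Lost peaks had it in 0.216%, 0.172%, 0.141% and 0 of 72, where 0 of 72 allows a share of up to 4.99%. In each of the 4 length classes RELA was therefore under a larger share of gained than of kept peaks. Kept peaks as a whole overlapped RELA more often, and 46.5% of them reached 1000 bp, compared to 2.01% of gained peaks.

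**Figure D2:**
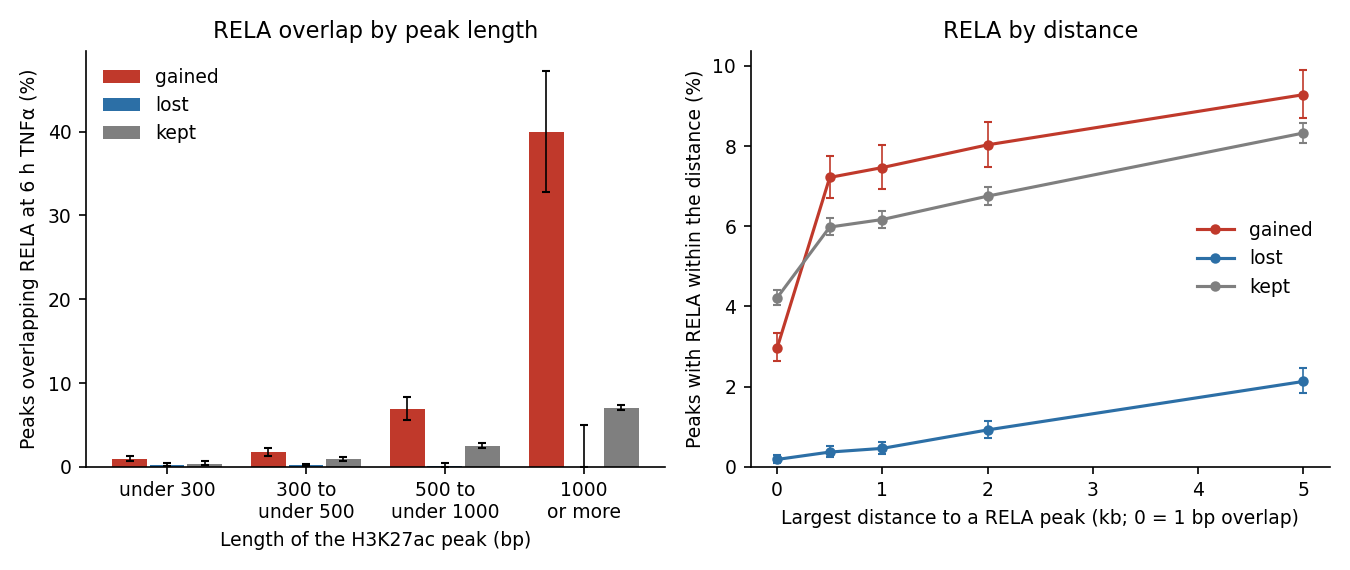
Left, percent of gained, lost and kept H3K27ac peaks outside tandem repeats that overlap a 6 h RELA peak, by peak length in bp. Right, percent of peaks with a RELA peak within the distance on the x axis (kb). Error bars are exact 95% intervals over regions. The gained share reaches 39.9% at 1000 bp or more, and the lost share stays at or below 2.13% at every distance drawn.

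RELB overlap was rare outside tandem repeats, and FOSL1 was not more frequent under gained than under lost peaks. RELB peaks at 6 h TNFα overlapped 3.61% (3.26 to 3.99) of gained, 2.40% (2.10 to 2.73) of lost and 2.57% of kept peaks, but 88.3% of the RELB list lay in tandem repeats. Outside them 29 gained (0.310%), 5 lost (0.0576%) and 0.446% of kept peaks overlapped RELB. FOSL1, mapped in vehicle-treated cells, overlapped 18.0% (17.2 to 18.7) of gained, 19.3% (18.5 to 20.1) of lost and 60.2% of kept peaks. Without tandem repeats FOSL1 was under 14.0% of gained and 16.7% of lost peaks. Gained peaks thus carried FOSL1 slightly less often than lost ones, and both far less often than kept ones.

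The 277 gained peaks with RELA were longer than the other gained peaks, and a longer peak meets a 1 bp overlap more readily. Their median length was 650 bp (397 to 1042), against 319 bp for the 9073 gained peaks without RELA, and their median fold enrichment was 2.86 against 2.54. The NF-κB consensus was found in the central 500 bp of 54.2% of them, 11.2% of gained peaks without RELA, 9.64% of lost peaks without RELA and 40.1% of kept peaks with RELA. RELA was already bound at 30 min of TNFα at 215 of the 277 (77.6%) and in vehicle at 12 (4.33%). FOSL1 in vehicle was found at 23.1% of them, compared to 82.9% of kept peaks with RELA. Gained peaks with RELA were mostly distal, with 5.05% within 1 kb of a TSS, whereas 32% of kept peaks with RELA lay there.

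The other H3K27ac lists were then used to ask when and after which ligand the gained peaks were present. Of gained peaks with RELA, 61.7% (171 of 277) were in the 30 min TNFα list, 23.5% in the 30 min TWEAK list and 41.2% in the 6 h TWEAK list, and 24.9% were in none of them. Gained peaks without RELA were found in the 3 lists at 22.4%, 19.6% and 21.2%, and 57.6% were in none. Lost peaks without RELA were found at 24.4%, 29.7% and 27.6%. The share in the 30 min TNFα list was thus higher for gained peaks with RELA than for both other classes. Gained peaks with RELA were also longer, and this share rose with length. From below 300 bp to 1000 bp or more it went from 17.0% to 64.4% for all gained peaks and from 19.4% to 55.6% for lost peaks. The part of length in the difference was not tested. For comparison, 80.6% of all kept peaks were in the 30 min TNFα list, 83.6% in the 30 min TWEAK list and 89.5% in the 6 h TWEAK list. The 30 min TNFα, 30 min TWEAK and 6 h TWEAK lists covered 45.1, 46.9 and 46.4 Mb, less than the 55.5 Mb at 6 h TNFα and in vehicle, and the part of this difference in the shares was not tested.

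**Figure D3:**
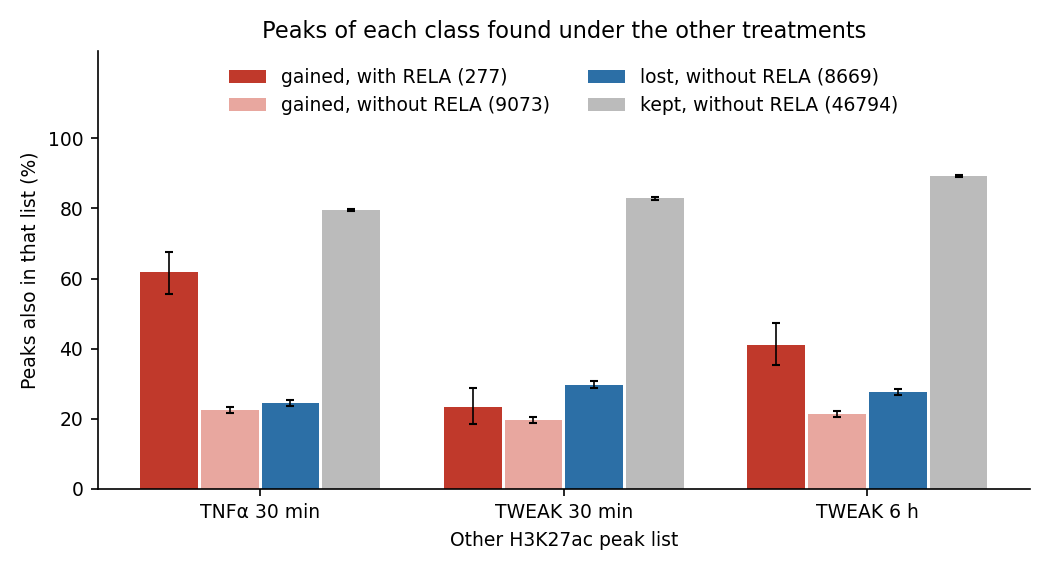
Percent of gained peaks with RELA (277), gained without RELA (9073), lost without RELA (8669) and kept without RELA (46794), all outside tandem repeats, that overlap the H3K27ac list on the x axis. Error bars are exact 95% intervals over regions. Gained peaks with RELA stand at 61.7% in the 30 min TNFα list, and gained peaks without RELA at 22.4%.

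Each of these lists was also compared with vehicle by the same rule. They share the vehicle list with the 6 h TNFα comparison. At 30 min of TNFα 2.27% of gained and 0.298% of lost peaks outside tandem repeats overlapped the 6 h RELA list. In TWEAK-treated cells 0.900% of gained and 0.767% of lost peaks did so at 30 min, and 1.52% and 0.467% at 6 h. The 6 h TNFα values of 2.96% and 0.184% were the farthest apart of the 4 comparisons. All 4 were set against the 6 h TNFα RELA list, which matches the ligand and time of the 6 h TNFα comparison only. The other lists were not set against RELA of their own condition, so this order cannot rank the treatments.

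Seen from the RELA sites, most did not change class. Of the 3663 RELA summits outside tandem repeats, 1602 (43.7%) lay in H3K27ac of both lists and 1507 (41.1%) in neither. The 6 h list alone covered 348 summits (9.50%), of which 171 were in gained peaks and 177 in the edges of kept peaks. The vehicle list alone covered 206 (5.62%), of which 11 were in lost peaks and 195 in edges. Many of the latter were gaps, since 134 RELA summits (3.66%) lay between 6 h peaks that together replaced 1 vehicle peak, while 49 (1.34%) lay between vehicle peaks under 1 6 h peak. For the 52484 FOSL1 summits the order was reversed, with 5.20% in the 6 h list alone and 6.93% in vehicle alone. The NF-κB consensus was present within 200 bp windows at 66.1% of the RELA summits in gained peaks, 56.7% of those in both lists and 59.7% of those in neither.

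Kept peaks at RELA sites that were paired 1 to 1 were longer at 6 h more often than they were shorter. In 45339 cases 1 vehicle peak corresponded to 1 6 h peak, and 43360 of these pairs lay outside tandem repeats. Left out were 2015 vehicle peaks over more than 1 6 h peak and 1615 6 h peaks over more than 1 vehicle peak. The RELA summits in gaps described above are therefore not in these pairs. Among the 1874 pairs with RELA under either interval, the median log2 ratio of 6 h to vehicle length was 0.08 (10th to 90th percentile -0.12 to 0.76), and 133 (7.10%; 5.98 to 8.35) were at least doubled while 3 (0.160%) were at most 50% as long. Where RELA lay under both intervals (1707 pairs), 85 (4.98%) were at least doubled and 2 (0.117%) at most 50% as long. Without RELA (41486 pairs) the median was -0.02 (-0.55 to 0.46), with 1169 (2.82%) at least doubled and 1566 (3.77%) at most 50% as long. The median vehicle length was 1391.5 bp in pairs with RELA under either interval and 959 bp in pairs without RELA. The median of the deposited fold enrichment hardly differed. Its log2 ratio had a median of -0.00 with RELA and -0.02 without, and a 90th percentile of 0.21 and 0.17. Fold enrichment is averaged over each peak and the peaks differed in length. These values therefore cannot show whether enrichment at a fixed position differed.

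Gained peaks were next assigned to genes. Within 50 kb of a TSS, 7013 of 19626 protein-coding genes (35.7%) had a gained peak and 6839 (34.8%) a lost peak. A gained peak overlapping RELA outside tandem repeats was near 357 genes (1.82%) and a lost one near 17 (0.0866%). With RELA within 500 bp, the numbers were 669 genes (3.41%) and 47 genes (0.239%). The counts of the 13 gene lists that follow are to be read against these shares. Totals of peaks count a peak once for each gene near it, and were 10363 gained and 9952 lost over all protein-coding genes. Covered lengths of genes are also given below for the 30 min TNFα and 6 h TWEAK lists. Those lists cover 45.1 and 46.4 Mb in total, less than the 55.5 Mb at 6 h TNFα and in vehicle. The lengths were not scaled for this. Genes of one cluster share their windows, and genes with more H3K27ac peaks have more chances of a gained one, so the median number of vehicle peaks per gene is given where it differs from the 4 of all genes.

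The negative feedback genes of NF-κB had the most gained peaks. In the list of IκB proteins and feedback inhibitors, 10 of 12 genes had a gained peak and 5 a lost one, with 25 gained and 8 lost peaks in total and a median of 7 vehicle peaks per gene. A gained peak within 500 bp of RELA was near 5 of the 12 (NFKBIE, TNFAIP3, TNIP1, CYLD and ZC3H12A). The 500 bp rule outside tandem repeats was added after seeing the data. By overlap of 1 bp, such a peak was near 1 of the 12, compared to 3 of 14 chemokines, 2 of 12 survival genes and 1 of 5 subunits. TNFAIP3, the A20 ubiquitin-editing enzyme that ends NF-κB signaling, had 5 gained and 0 lost peaks, and the H3K27ac length within 50 kb of its TSS was 6.22 kb in vehicle, 7.38 kb at 30 min of TNFα and 10.5 kb at 6 h, compared to 5.94 kb at 6 h of TWEAK. TNIP1, which binds A20, also had 5 gained and 0 lost peaks and covered 7.33 kb in vehicle and 10.5 kb at 6 h. The covered length of its relative TNIP2 was 4.86 and 7.45 kb, and that of NFKBIA, the gene for IκBα, 8.20 and 10.7 kb. NFKBIB went the other way, with 3 lost and 0 gained peaks and 9.03 kb in vehicle against 8.06 kb at 6 h.

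To place such values, the ratio of 6 h to vehicle length was computed for the 16364 genes with at least 1 kb of H3K27ac in vehicle. The median ratio was 0.992, the quartiles 0.915 and 1.07, and the 5th and 95th percentiles 0.757 and 1.28. TNFAIP3 (1.68), TNIP2 (1.53), TNIP1 (1.44) and NFKBIA (1.31) were above the 95th percentile of all genes, and so were 5 of 12 chemokines, 4 of 13 interferon and antigen presentation genes (HLA-E and the neighbours TAP1, PSMB8 and PSMB9) and 2 of 12 survival genes. Also above it were 2 of 9 mesenchymal, 2 of 11 TRAF and cIAP, 1 of 5 subunit, 1 of 16 adhesion and 1 of 17 cytokine genes. Of the RNA-induced genes described below, 16 of 258 for TNFα alone and 31 of 470 of the second list were above it. Their median ratios were 1.02 and 1.00. None of the 12 housekeeping genes, 10 AP-1 genes or 14 epithelial genes was above the 95th percentile. The housekeeping list had 5 genes with a gained and 5 with a lost peak and a median ratio of 0.998, and its lowest member was the lysosomal enzyme gene GUSB at 0.611, with 3 lost peaks. Among the AP-1 genes ATF3, a stress-induced factor, was lowest at 0.718.

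**Figure D4:**
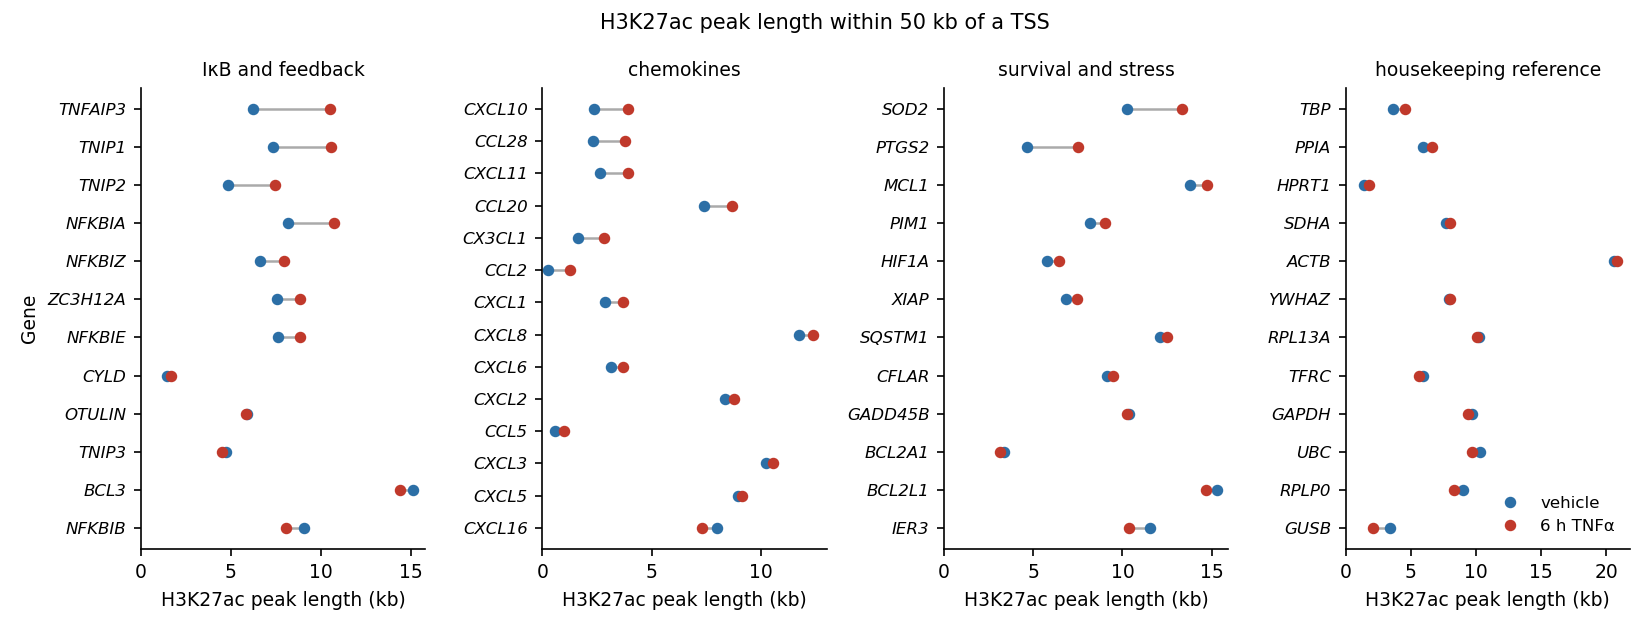
Total length of H3K27ac peaks (kb) within 50 kb of a TSS in the vehicle list (blue) and the 6 h TNFα list (red) for 4 gene lists, with genes ordered by the difference. TNFAIP3 covers 6.22 kb in vehicle and 10.5 kb at 6 h. Most housekeeping genes lie close to their vehicle value, and GUSB, HPRT1 and TBP differ most in ratio.

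The TNFAIP3 locus shows how the gained peaks lay around RELA. A RELA peak from 6.17 to 6.51 kb downstream of the TSS lay between a gained peak from 5.41 to 6.02 kb (613 bp, fold enrichment 1.47) and a gained peak from 6.54 to 7.35 kb (814 bp, fold enrichment 1.66). Neither touched the RELA peak, so an overlap of 1 bp does not count them. Both positions were also in the 30 min TNFα list. The 30 min TWEAK list had 1 peak over both (5.63 to 6.96 kb, fold enrichment 3.40), and the 6 h TWEAK list had 1 at the first (5.51 to 6.07 kb, fold enrichment 2.02), whereas the vehicle list had no peak between 1.01 and 59.2 kb downstream of the TSS. At the promoter the fold enrichment of the 2 peaks was 3.93 and 2.72 in vehicle and 2.77 and 1.96 at 6 h, while the downstream peak was 978 bp long in vehicle and 1382 bp at 6 h. At TNIP1 a RELA peak from 9.93 to 10.2 kb, present in vehicle as well, lay next to a gained peak from 10.2 to 10.5 kb, and the promoter peak was 662 bp long in vehicle and 2189 bp at 6 h. More of both loci was marked at 6 h. The deposited enrichment of most kept peaks within 60 kb of either TSS was, however, lower than in vehicle. It was higher for the TNIP1 promoter peak (2.48 in vehicle, 2.88 at 6 h) and the TNFAIP3 peak near 59.2 kb (2.90 and 3.51). The 2 gained peaks beside RELA at TNFAIP3 lay below the lower quartile of all gained peaks, 2.37.

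**Figure D5:**
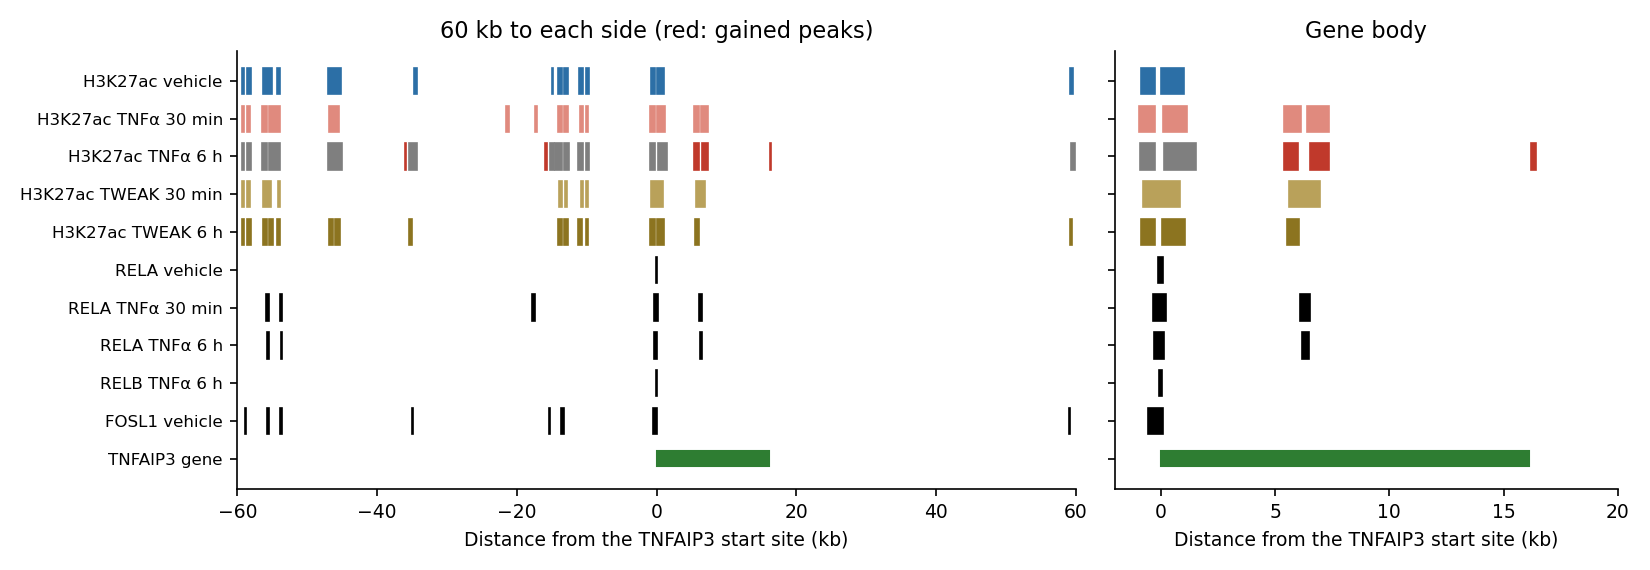
Peaks of the H3K27ac, RELA, RELB and FOSL1 lists around the TNFAIP3 start site, 60 kb to each side (left) and over the gene body (right), with distance in kb on the x axis. Gained peaks are red and other 6 h TNFα peaks grey; the 2 gained peaks in the gene body flank the RELA peak at 6.17 to 6.51 kb and are not in the vehicle list.

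Chemokines, which attract leukocytes, also had gained peaks at RELA, and for 3 of 14 genes such a peak overlapped RELA. A gained peak was found near 8 of 14 genes and a lost peak near 4, and 5 genes (CXCL8, CXCL10, CXCL11, CCL2 and CCL5) had a gained peak within 500 bp of RELA. CXCL10 and CXCL11, which are neighbours and ligands of CXCR3, share 1 gained peak of 1267 bp whose RELA site is printed above. The H3K27ac length around CXCL10 was 2.35 kb in vehicle, 3.20 kb at 30 min, 3.92 kb at 6 h and 2.56 kb at 6 h of TWEAK. CCL2, a monocyte attractant, had little H3K27ac in any list, with 0.266 kb in vehicle, 0.945 kb at 30 min and 1.24 kb at 6 h, and 2 gained peaks within 500 bp of RELA. The T cell attractant CCL5 covered 0.558, 1.05 and 0.971 kb in the same order. CXCL8, the neutrophil attractant interleukin 8, was already marked over 11.7 kb in vehicle and covered 12.4 kb at 6 h. Among chemokines without RELA at the gained peak, CX3CL1 had a ratio of 1.73 and CCL28 of 1.63. Of the neighbouring neutrophil chemokines, CXCL2, CXCL3 and CXCL5 had neither gained nor lost peaks, and CXCL1 and CXCL6 had lost but no gained peaks, while the covered length around them was higher at 6 h than in vehicle (ratios 1.29 and 1.18). A further list holds the genes whose tracks the study shows, which were picked on these samples. Of its 6 members, 5 had a gained and 1 a lost peak, with 10 gained peaks in total, and CXCL8, TNFAIP3 and EFNA1 had one within 500 bp of RELA. EFNA1, a membrane-bound ephrin ligand, covered 7.10 kb in vehicle and 8.22 kb at 6 h, and MMP1, a collagenase gene without a gained peak, 5.65 and 7.02 kb.

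Of the NF-κB subunits, NFKB1, which encodes p105 and p50, had 2 gained peaks, 1 of them with RELA (1123 bp, in an intron), and covered 2.06 kb in vehicle, 4.74 kb at 30 min and 3.87 kb at 6 h. REL had 1 lost peak and a ratio of 0.730, NFKB2 had 2 lost peaks and a ratio of 1.18, RELB had 2 gained peaks and RELA had neither. In the list of TRAF and cIAP adaptors 6 of 11 genes had a gained and 5 a lost peak, none of the gained ones near RELA. A gained peak within 500 bp of RELA was near only 3.41% of all genes. The kinase genes IKBKE (1.40) and RIPK2 (1.45) were the 2 of this list above the 95th percentile.

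Survival and stress genes had gained peaks near 10 of 12 and lost peaks near 5 of 12, at a median of 9 vehicle peaks per gene. PTGS2, which encodes cyclooxygenase 2, had 3 gained and 0 lost peaks, 2 of them within 500 bp of RELA, and covered 4.65 kb in vehicle, 6.10 kb at 30 min, 7.51 kb at 6 h and 5.61 kb at 6 h of TWEAK. The gained peak whose RELA site is printed above lay in none of the other H3K27ac lists. SOD2, the mitochondrial superoxide dismutase, covered 10.3 kb in vehicle and 13.3 kb at 6 h, and its gained peak of 1629 bp lies in an intron of SOD2, 7.91 kb from the TSS of WTAP, so it is within 50 kb of both. The anti-apoptotic genes BCL2L1, BCL2A1 and MCL1 had 1 gained peak each without RELA, and their ratios lay between 0.937 and 1.07.

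Among cytokines and growth factors more genes had a lost (12 of 18) than a gained peak (8 of 18), although the list had 14 gained and 13 lost peaks in total. TNF, LTA and LTB are neighbours and share 1 lost peak. IL6 was marked by a single vehicle peak of 0.268 kb, which was lost, although 0.545 kb was listed at 30 min of TNFα. In contrast, CSF2, which encodes the growth factor GM-CSF, had 4 gained and 0 lost peaks and a covered length of 4.13 kb in vehicle, 3.62 kb at 30 min and 8.30 kb at 6 h. IL32 had a gained peak of 1580 bp with RELA at its start site and covered 6.93 kb in vehicle and 8.83 kb at 6 h.

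In the interferon and antigen presentation list 9 of 16 genes had a gained and 5 a lost peak. None of the gained peaks lay within 500 bp of RELA, where 3.41% of all genes had one. The peptide transporter TAP1 and the immunoproteasome subunits PSMB8 and PSMB9 share a window that covered 1.47 kb in vehicle, 1.14 kb at 30 min and 3.07 kb at 6 h, with 1 gained peak. IRF2 had a lost peak and a ratio of 0.812. Adhesion and invasion genes had gained peaks at 8 of 16 and lost peaks at 5 of 16, and LAMB3, a laminin chain, was the one above the 95th percentile (5.11 kb in vehicle and 7.32 kb at 6 h).

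Summed over its genes, the epithelial and lineage list had 21 lost and 13 gained peaks, at 9 and 8 of 16 genes. TP63, a squamous lineage factor, had 6 lost and 3 gained peaks, and the neighbouring keratin genes KRT8 and KRT18 had 4 and 3 lost peaks and 1 gained peak each. As markers of an epithelial line, the keratin genes KRT7, KRT8, KRT18 and KRT19 were marked over 12.1 to 17.4 kb in vehicle and 11.6 to 15.9 kb at 6 h. Mesenchymal genes had gained peaks at 6 of 10 and lost peaks at 4 of 10. FN1, which encodes fibronectin, had 3 gained peaks without RELA and covered 1.18 kb in vehicle and 2.36 kb at 6 h, while the 2 vehicle peaks near CDH2 (0.638 kb) were lost. AP-1 genes had gained peaks at 7 of 12 and lost peaks at 6 of 12, and none of the gained ones was near RELA. No gene of any of the 13 lists had a lost peak within 500 bp of RELA. Of all protein-coding genes, however, only 3.41% had a gained and 0.239% a lost peak there, so an absence in short lists says little.

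Genes that the study lists as induced in RNA-seq by TNFα alone, or as induced by both ligands or mainly by TWEAK, were counted in the same way, by name. They come from the same project and are not an independent choice. For TNFα alone, 263 of 310 names were matched. A gained peak was near 147 of them (55.9%) and a lost peak near 44.1%, and a gained peak within 500 bp of RELA near 20 (7.60%), against 0 for lost peaks. Of 490 matched genes of the second list (626 names), 235 (48.0%) had a gained and 243 (49.6%) a lost peak, and a gained peak within 500 bp of RELA was near 29 (5.92%) and a lost one near 2 (0.408%). For all genes the shares within 500 bp of RELA were 3.41% for gained and 0.239% for lost peaks. Both lists had more H3K27ac peaks per gene than all genes, with a median of 7 and 6 in vehicle.

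Single gained peaks of highest fold enrichment were mixed. The 10 highest outside tandem repeats lay nearest to FRS2, PTPRN2, MIGA1, GALNT18, ACP6, SP100, CCDC8, DDX52, CNTNAP5 and MYO1D, with fold enrichments between 4.31 and 4.98, and 4 of them overlapped RELA. The first, in an intron of FRS2, an adaptor of fibroblast growth factor receptors, was 588 bp long (chr12:69570403-69570990) and was present in all 3 other H3K27ac lists. Among the 10 gained peaks with RELA of highest fold enrichment (4.02 to 4.98), the nearest further genes were CLDN14, NMNAT2, NAMPT, CCL5, DNM3 and NINJ1. In 9 of these 10, all but the peak at the tight junction gene CLDN14, RELA was already bound at 30 min and H3K27ac was in the 30 min TNFα list. The peak nearest to NAMPT, an enzyme of NAD synthesis, lies 139 kb from its TSS and the one nearest to CNTNAP5 522 kb, so a nearest gene is only a label of position there. Of the 10 lost peaks of highest fold enrichment (4.32 to 4.70; nearest genes LEP, LGR5, RPIA, HECTD4, SCAND3, PVRIG, TSHZ3, LIPE, CFAP73 and HMGB1P1), none overlapped RELA.

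The longest gained peaks with RELA were looked up after their values were seen. They lay nearest to EHD1, which acts in endocytic recycling (1891 bp), CLIC4 (1784 bp), ZNF76 (1751 bp), IFNAR2, a subunit of the type I interferon receptor (1726 bp), UBE2Z, EN1, MLF1, WTAP, IL32 and SGK1. All 10 had RELA at 30 min and were in the 30 min TNFα list. Among kept pairs with RELA, also chosen for the bases added, the peak nearest to CSF2 was 289 bp long in vehicle and 1832 bp at 6 h, and that nearest to TLE3 367 and 1975 bp. The 16 lost peaks with RELA were short, with a median of 297 bp.

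Fold enrichment of kept peaks with RELA was highest relative to vehicle at the promoter of SLC2A6, a glucose transporter gene, where a peak of 235 bp and fold enrichment 2.49 in vehicle was 886 bp and 4.24 at 6 h, a log2 ratio of 0.76. The next 9 of this ranking lay nearest to IRS2, GHRHR, ECPAS, ATP5MJ, CDH8, ROCK1, GUCY2F, SPIDR and ZNF254, with log2 ratios from 0.64 to 0.74, and those at ROCK1 and ZNF254 were in tandem repeats. None of the pairs reached a log2 ratio of 1.

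By number of gained peaks, FRMD4A, a large gene for a scaffold protein of cell polarity, was first with 12 gained and 2 lost peaks, 5 of the gained ones within 500 bp of RELA. Its covered length was 9.99 kb in vehicle, 7.03 kb at 30 min and 16.2 kb at 6 h. PTK2, which encodes focal adhesion kinase, followed with 8 gained and 1 lost peak, and BASP1, LAMA5, LRBA, NAV3, PDE4B, PSMA6, RERE and RIPOR3 with 7 each. PSMA6 lies next to NFKBIA. Such counts are also found in the other direction, since up to 12 lost peaks were near 1 gene, and 285 genes had at least 3 gained and 0 lost peaks while 240 had at least 3 lost and 0 gained.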

How the data were processed

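ChIP-seq of L3.6pl cells was taken from the peak lists of the authors, 1 list of 3 merged replicates per condition. According to the submitters' processing notes, Bowtie2 2.5.0, SAMtools 1.18, MACS2 and deepTools 3.3.2 were used, and reads were mapped to hg38. Fold enrichment is the authors' ratio of ChIP over input, deposited with each peak and averaged over a broad peak. The −log10 q was deposited by the authors as well, and the lowest in the 6 h list was 1.01. Of the lists, 11 were used, 5 of them H3K27ac. The other 5, of RELA and RELB, were not used here. It is not settled that all replicates are in the 30 min TNFα RELA list.

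Peaks on 23 chromosomes were compared with own code in Python 3.11.15 (numpy 2.4.6, pandas 2.3.3, scipy 1.17.1), checked against bedtools 2.31.1 and tested on simulated data, where all made overlaps were found. Genes came from GENCODE 44. A tandem repeat is a 1000 bp window whose sequence matches itself at a share of 0.4 or more when shifted by up to 400 bp. No test was made, since regions are not replicates. The members, gene lists and rules were chosen with earlier results of these data known. Named were genes of 13 lists, the nearest genes of the 10 gained, gained with RELA and lost peaks of highest fold enrichment and of the 10 kept peaks with RELA whose fold enrichment differed most, and the 10 genes with most gained peaks. Alternatives covered the q threshold, the number of peaks, the overlap, tandem repeats and distances. Depth per sample is unknown.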

Additional observations from a re-analysis of the deposited data

How the results depend on the processing

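Each condition has 1 pooled list, so no value carries an error between replicates, leaving out a replicate was not possible and depth cannot be compared. No paired analysis was possible because the lists carry no replicate columns. A share counts as moved when it leaves the 95% interval of the reported value. Of the 82 alternative values planned, 70 moved and 12 did not. In every alternative run RELA was under a larger share of gained than of lost peaks, but the order of the gained and lost shares themselves turned under 2 of them. In what follows gained peaks are given first and lost peaks second.

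With both H3K27ac lists at q 0.001 or below, 12.2% of peaks were gained and 13.7% lost, 6.20% and 8.17% lay within 1 kb of a TSS, 11.4% and 3.94% overlapped RELA, 5.75% and 3.59% RELB and 32.9% and 36.1% FOSL1, and 22% and 25.9% of genes had such a peak. With only the peak's own list at that q the values were 5.28% and 4.90% of peaks, 5.92% and 9.07% near a TSS, 16.3% and 5.81% with RELA, 8.96% and 4.83% with RELB, 27.7% and 27.6% with FOSL1, and 10.4% and 10.7% of genes. With the 40000 peaks of highest fold enrichment in each list, 16.5% were gained and 17.0% lost, with 7.34% and 8.83% near a TSS, 9.94% and 4.80% with RELA, 5.35% and 3.74% with RELB, 35.6% and 35.7% with FOSL1, and 26.5% and 28.3% of genes.

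Where 50% of a peak had to be covered to count as shared, 21.1% were gained and 20.6% lost, 5.49% of gained peaks lay near a TSS, 2.54% of lost peaks overlapped RELA, 3.25% and 2.05% RELB and 21.5% and 24.3% FOSL1, and 42.1% and 42.6% of genes had one. With peaks within 1 kb counted as shared, 13.2% were gained and 12.1% lost, 4.05% and 5.12% lay near a TSS, 7.03% of gained peaks overlapped RELA, and 29.7% and 28.5% of genes had one. With peaks in tandem repeats left out, 16.1% were gained and 15.2% lost, 2.96% and 0.184% overlapped RELA, 0.310% and 0.0576% RELB and 14.0% and 16.7% FOSL1, and 34.1% of genes had a lost peak. Within 2.5 kb of a TSS lay 8.80% and 9.64%. Within 500 bp of a factor peak lay 10.5% and 3.33% for RELA, 4.15% of gained peaks for RELB, and 34.2% and 35.5% for FOSL1. Within 10 kb of a TSS 11.4% and 11.3% of genes had a peak.

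Combinations of 2 choices were added after seeing the data. Without tandem repeats, 7.22% and 0.368% of peaks lay within 500 bp of RELA and 0.652% and 0.104% within 500 bp of RELB. Without tandem repeats and with the peak's own list at q 0.001 or below, 9.0% and 0.257% overlapped RELA and 1.10% and 0.0514% RELB. The cause of these shifts was not tested.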
